A study of Mus musculus with 3 samples.

Results

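The cells described here are the 4136 cells of the mouse corneal epithelium that the deposited annotation places in a class named TAC1, out of 38111 annotated cells. They were chosen by that class name alone and came from all 3 libraries, with 1340, 1640 and 1156 cells from libraries 1, 2 and 3. TAC is read here as transit-amplifying cell, a reading the annotation does not spell out. All mice were C57BL/6J and healthy, with no treatment and no engineered allele named in the labels. Library 1 pooled 4 corneas from 2 males at 20 weeks of age, library 2 pooled 4 corneas from 2 females at 11 weeks, and 7 corneas from 7 males at 10 weeks made up library 3. Each library is a pool of animals, so it counts as 1 replicate, differences between single animals were not measured, and the effects of age and sex cannot be told apart from the library. TAC1 was set against the other 6 epithelial classes of the same libraries, which were TAC2 (3186 cells), basal (8829), LSC (737, read as limbal stem cells), wing (13447), Squam (5240, superficial squamous) and Conj (2422, conjunctival).

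A transit-amplifying cell is a descendant of a stem cell that divides a limited number of times before it differentiates. In the cornea, stem cells of the limbus at the corneal rim feed the basal layer, where such divisions take place, and daughters leave the basement membrane to become wing and then superficial cells. Before a cell copies its DNA, the origin recognition complex with Cdc6 and Cdt1 loads the ring-shaped MCM helicase onto each origin, a step called licensing that belongs to G1 phase. In S phase, kinases, Cdc45 and the GINS complex turn the loaded ring into a moving replisome, and a later set of genes, transcribed mainly in G2 and M phase, runs chromosome segregation. Transcription of many licensing and replication genes is driven by E2F factors, which cyclin-dependent kinases free from the RB proteins.

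TAC1 made up 14.2%, 14.6% and 6.67% of the epithelial cells of libraries 1, 2 and 3, with exact 95% binomial intervals of 13.5 to 14.9%, 14.0 to 15.3% and 6.30 to 7.05% that cover counting error only. The mean share was 11.8 ± 4.47% (SD, n = 3), and library 3 stood well below the other two. Without library 3 the mean was 14.4%. The TAC1 cells held 21445207, 21100347 and 9947365 UMIs, unique molecular identifiers that each mark 1 captured RNA molecule, at a median of 16632, 12960 and 7776 UMIs per cell. TAC2 cells had medians of 13033, 12016 and 7277 UMIs and basal cells 13166, 9865 and 5818, so TAC1 cells were the deepest of these 3 classes in every library. At an equal depth of 2000 UMIs per cell, 877 ± 13.7 genes were detected in a TAC1 cell, 928 ± 8.73 in a TAC2 cell and 864 ± 11.0 in a basal cell (means ± SD over 3 libraries). Mitochondrial genes took a median of 1.78, 1.78 and 2.07% of the UMIs of a TAC1 cell. Pairs of libraries shared 32, 57 and 53 cell barcodes, and 10, 10 and 12 of the cells that carry them were TAC1 cells.

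The 3 genes given as marks of the class behaved differently. Mcm6, a subunit of the MCM helicase, had 115, 119.9 and 110.3 CPM (UMI counts scaled to a common total with TMM factors over all class sums) in TAC1 of libraries 1, 2 and 3. It had 44.1, 45.8 and 24.5 CPM in TAC2 and 15.9, 18.3 and 10.6 CPM in basal cells, so TAC1 did not overlap with either class. Pcna, the sliding clamp of DNA polymerase, had 166, 175 and 197 CPM in TAC1, 151, 146 and 99.8 CPM in TAC2 and 43.6, 42.4 and 40.1 CPM in basal cells. Its difference from TAC2 was small, at a log2 of 0.44 ± 0.14 (SE, adjusted p = 0.0299), although the lowest TAC1 library was above the highest TAC2 library. Col17a1, a collagen of the hemidesmosomes that hold basal cells to the basement membrane, had 1183, 987 and 1055 CPM in TAC1 and 1105, 980.4 and 975 CPM in basal cells (log2 0.08 ± 0.11, adjusted p = 0.666). The ranges of TAC1 and basal cells overlapped, while TAC2 lay below TAC1 with 870.01, 752 and 765 CPM (log2 0.43 ± 0.11, adjusted p = 0.00648).

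Summed markers of limbal, wing, superficial and conjunctival cells were low in TAC1 and near their basal level. The markers of dividing cells (TAC2), Mki67 and Top2a, were not, with sums of 43.0 to 61.7 CPM in TAC1 and 5.74 to 7.38 CPM in basal cells. The limbal gene Gpha2 averaged 102 ± 31.8 CPM in TAC1, 97.2 ± 35.8 in basal cells and 2123 ± 117 in LSC (SD, n = 3). Krt4, a keratin of the conjunctiva, averaged 6.65 ± 6.41 CPM in TAC1, 6.07 ± 5.48 in basal cells and 3645 ± 1025 in Conj. Muc4, a membrane mucin of surface cells, averaged 7.70 ± 3.46 CPM in TAC1, 8.49 ± 2.95 in basal cells and 4613 ± 549 in Squam. The corneal keratin Krt12 averaged 14892 ± 939 CPM in TAC1 and 16716 ± 717 in basal cells, and the corneal factor Pax6 358 ± 8.80 CPM in TAC1 and 400.4 ± 16.4 CPM in basal cells. Of the 6 immune markers measured, 5 were detected in TAC1, with a summed level of 0 to 5.12 CPM over libraries against 0 to 0.784 CPM in basal cells, and the pan-leukocyte gene Ptprc was at 0. The highest of these sums came from library 2, where Cd74, a chaperone of MHC class II, had 0.116, 4.37 and 0.00 CPM in libraries 1, 2 and 3. Melanocyte markers summed to 3.39 to 4.66 CPM in TAC1 and 2.93 to 4.55 CPM in basal cells, and the 1 keratocyte marker in the table to at most 0.118 CPM. Conjunctival markers summed to 19.6 to 61.6 CPM in TAC1 and 23.4 to 60.8 CPM in basal cells, and the goblet cell genes Tff1 and Spdef were at 0. The part of other cells in the results below was not tested beyond these levels.

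Counts were summed per library and class, and 13472 genes were tested by the edgeR quasi-likelihood F test with the library as a block and Benjamini-Hochberg adjustment (threshold 0.05). The authors assigned the classes to these same cells, in a way not given in the sources used here, so a difference between classes describes the class and is no independent test of it. Over the tested genes the per-library correlation of log2 CPM with TAC1 was 0.972 to 0.976 for basal cells and 0.965 to 0.972 for TAC2. It was 0.883 to 0.924 for LSC, 0.882 to 0.894 for wing, 0.809 to 0.826 for Conj and 0.732 to 0.753 for Squam. These are correlations across genes, which are not independent replicates, and they put basal cells and TAC2 nearest to TAC1. Against the mean of the other 6 classes 4991 genes were higher in TAC1 (37.0% of those tested) and 4915 lower (36.5%). When the sums were scaled by library totals alone, the median gene lay 0.29 higher in log2 than under TMM, and the counts were 7068 higher and 3131 lower. Against TAC2 1877 genes were higher (13.9%) and 1950 lower (14.5%), and without library 1 these counts fell to 1039 and 1099. Against basal cells 1847 genes were higher (13.7%) and 1368 lower (10.2%), and the lower ones fell to 371 without library 1 and to 566 without library 2. Against LSC 2893 genes were higher (21.5%) and 3043 lower (22.6%), with 2028 lower without library 1. Wing cells differed by 4940 higher (36.7%) and 5450 lower genes (40.5%), Squam by 5917 (43.9%) and 5620 (41.7%), and Conj by 5260 (39.0%) and 5341 (39.6%). Higher in TAC1 than in each of the 6 classes were 285 genes (2.12%), and 171 without library 1 and 187 without library 3. Lower than in each of the 6 were 131 genes (0.972%), a count that dropped to 27, 67 and 77 when library 1, 2 or 3 was left out.

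Of the 22 lists, the licensing list held the largest share of genes higher in TAC1 than in each other class. Of its 17 genes, 16 were higher in TAC1 than in the mean of the other classes and 13 were higher than in each of the 6, where 2.12% of all genes were. The lists were chosen with earlier results of these data known, and this list holds Mcm6, a given mark of the class. Its share therefore describes the class and is no independent test of it. Against basal cells 14 of 17 were higher and 0 lower (13.7% of all genes were higher), with a median log2 difference of 3.04 beside -0.04 over all genes. TAC2 differed less, with 13 higher and 1 lower (13.9% of all genes were higher) and a median of 1.07 beside -0.01. Against LSC 16 of 17 were higher (21.5% of all genes were), with a median of 1.90. The summed level of the list was 868, 924 and 830 CPM in TAC1 of libraries 1, 2 and 3, against 486, 523 and 364 CPM in TAC2, 181, 192 and 156 CPM in basal cells and 218, 343 and 210 CPM in LSC. No library of another class reached the lowest TAC1 value.

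All 6 genes of the MCM ring were higher in TAC1 than in each of the 6 classes. Mcm2 had 56.5, 64.0 and 59.8 CPM in TAC1 of libraries 1, 2 and 3, 21.2, 22.6 and 14.0 CPM in TAC2 and 6.20, 8.35 and 3.62 CPM in basal cells. Mcm3 had 97.9, 98.3 and 88.5 CPM in TAC1, 37.3, 38.3 and 22.6 CPM in TAC2 and 6.20, 7.74 and 2.54 CPM in basal cells. For Mcm5 the values were 73.3, 81.9 and 65.3 CPM in TAC1, 35.5, 43.3 and 22.7 CPM in TAC2 and 4.24, 6.00 and 2.16 CPM in basal cells. In all 3 genes every TAC1 library lay above every TAC2 library, and every TAC2 library above every basal one. Library 3 had the lowest values of the 3 libraries in TAC2 and basal cells for each of these genes. Library 3 also had the fewest UMIs per cell, and a link with depth was not tested. At an equal depth of 2000 UMIs per cell, TAC2 cells averaged 1.09, 1.23 and 0.82 licensing-list UMIs in libraries 1, 2 and 3. Basal cells averaged 0.45, 0.44 and 0.36, with library 3 the lowest in both classes. Mcm4 averaged 82.9 ± 8.95 CPM in TAC1, 28.6 ± 6.92 in TAC2 and 9.64 ± 3.75 in basal cells, and Mcm7 averaged 92.1 ± 6.39 CPM in TAC1, 44.5 ± 10.4 in TAC2 and 11.6 ± 3.34 in basal cells. The log2 difference between TAC1 and TAC2 lay between 1.07 for Mcm7 (adjusted p = 8.77e-09) and 1.66 for Mcm2 (adjusted p = 4.51e-06), and Mcm6 had 1.62 ± 0.18 (adjusted p = 1.05e-05). Against basal cells it lay between 2.97 for Mcm6 (adjusted p = 1.96e-08) and 4.20 for Mcm5 (adjusted p = 2.38e-10). The ring genes lie apart in the genome (GRCm38, GENCODE M21), Mcm6 at chr1:128331590-128359664 and Mcm3 at chr1:20802968-20820312 on the minus strand, Mcm2 at chr6:88883474-88898780, Mcm4 at chr16:15623897-15637400 and Mcm7 at chr5:138164583-138172422, also on the minus strand, and Mcm5 at chr8:75109569-75128439 on the plus strand.

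**Figure D1:**
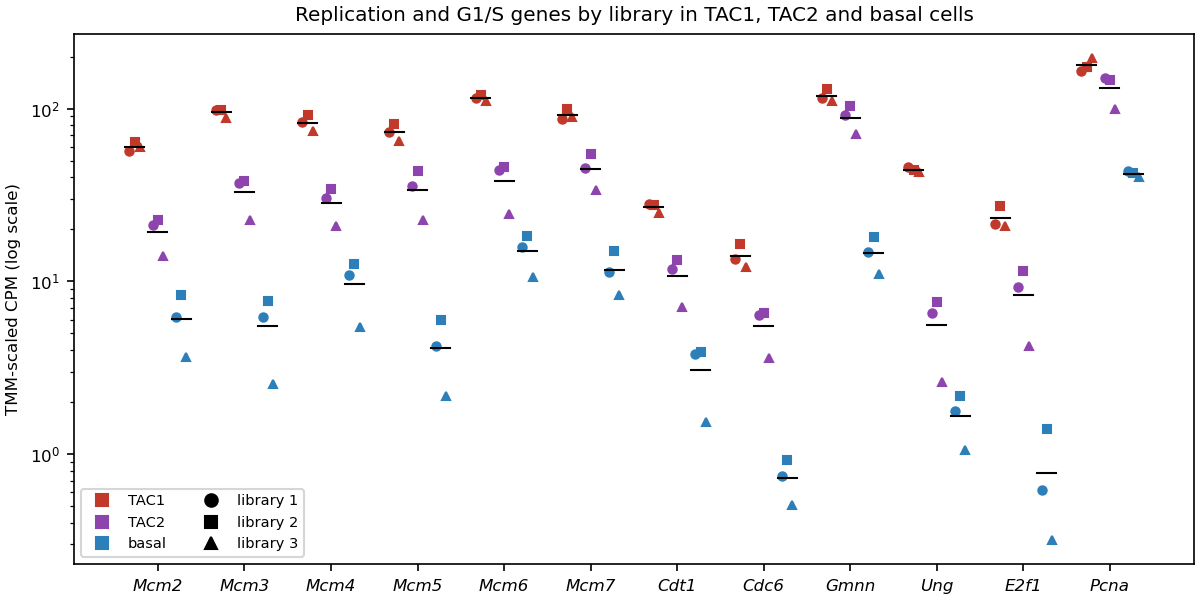
TMM-scaled CPM (log axis) of 12 replication and G1/S genes in TAC1, TAC2 and basal cells, with 1 point per library and a line at the mean of 3 libraries. The 6 ring genes, Cdt1, Cdc6, Ung and E2f1 fall stepwise through TAC1, TAC2 and basal cells, while Gmnn and Pcna are closer between TAC1 and TAC2.

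The loading factors did not all behave alike. Cdc6, an ATPase that loads the ring, averaged 14.0 ± 2.25 CPM in TAC1, 5.52 ± 1.68 in TAC2 and 0.726 ± 0.207 in basal cells (SD, n = 3), a log2 of 1.34 ± 0.12 over TAC2 (adjusted p = 9.32e-10). Cdt1, its partner, averaged 26.9 ± 1.84, 10.7 ± 3.25 and 3.07 ± 1.34 CPM in TAC1, TAC2 and basal cells (log2 1.33 over TAC2, adjusted p = 8.71e-06). Orc1, the subunit of the origin recognition complex that varies with the cell cycle, averaged 6.93 ± 1.41 CPM in TAC1, 1.87 ± 0.381 in TAC2 and 0.350 ± 0.213 in basal cells (log2 1.88 ± 0.20 over TAC2, adjusted p = 1.67e-08). Of the other subunits, Orc6 was higher than in TAC2 (0.42) and basal cells (1.63), and Orc2 than in basal cells (0.73). Orc4 was 0.07 from TAC2 and 0.01 from basal cells (adjusted p = 0.556 and 0.963), and Orc5 0.12 from TAC2 and 0.18 from basal cells (adjusted p = 0.574 and 0.349). Orc3 was 0.00 from basal cells (adjusted p = 0.991) and lower than in TAC2 (-0.35, adjusted p = 0.00457), a call lost without library 3 and at 2000 UMIs per cell. The call of Orc2 over TAC2 (0.23) was lost without library 1 or 2 and under most other settings. Mcm10, which joins the ring as the fork starts, was 5.81 ± 0.24 over basal cells (adjusted p = 1.31e-17) and 0.26 ± 0.14 from TAC2 (adjusted p = 0.162). Gmnn, the geminin that blocks Cdt1 from licensing again, had 115, 129.7 and 110.3 CPM in TAC1 of libraries 1, 2 and 3, 91.2, 104 and 70.9 CPM in TAC2 and 14.8, 18.0 and 11.0 CPM in basal cells. TAC1 was above TAC2 in each library, by a log2 of 0.43 ± 0.08 (adjusted p = 0.000108).

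E2F-type motifs were counted in the promoters of replication genes because E2F factors drive many of them. The letters searched were TTTCCCGC and TTTGGCGC on both strands, in RefSeq promoters (GRCm38.p6, 250 bases before to 50 after a gene's start). Of the 80 replication genes higher in TAC1 than in basal cells 67 matched the table, with 78 promoters, and 17 of these promoters (21.8%) held a motif. The 80 were most of the 85 tested genes of lists made by function, so this share describes replication genes and is no result about TAC1. Among all promoters of the table the motif was in 514 of 32851 (1.56%), and among promoters of tested genes in 373 of 13208 (2.82%). The letters CCAAT, on both strands, were in 43 of the 78 (55.1%), beside 37.4% of all promoters. The 17 promoters belonged to Cdc6, Cdt1, Dnmt1, Ezh2, Gins3, Hells, Mcm3, Mcm5, Mcm6, Mcm7, Mcmbp, Pola1, Pold1, Pold3, Pole2, Rfc3 and Ssrp1. Of these, 3 are shown, for 2 genes of the ring and for the catalytic subunit of the priming polymerase alpha, because the 100 bases around the motif held no annotated transcript. Capitals mark the motif, and a match describes letters and not binding.
Mcm6, chr1:128359731-128359830, minus strand: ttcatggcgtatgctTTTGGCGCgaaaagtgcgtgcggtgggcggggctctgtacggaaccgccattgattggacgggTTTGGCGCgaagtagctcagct
Mcm5, chr8:75109314-75109413, plus strand: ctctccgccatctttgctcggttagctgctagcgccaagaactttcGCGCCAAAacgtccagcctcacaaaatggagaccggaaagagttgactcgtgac
Pola1, chrX:93632240-93632339, minus strand: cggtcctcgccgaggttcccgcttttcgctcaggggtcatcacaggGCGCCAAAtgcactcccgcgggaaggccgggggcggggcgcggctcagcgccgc
The Mcm6 window holds the motif 110 and 47 bases before the RefSeq start of the gene, the Mcm5 window 149 and the Pola1 window 138 bases before it.

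Genes that fire origins and run the fork stood far above basal cells and closer to TAC2. All 18 replisome genes were higher than in basal cells (13.7% of all genes were), with a median log2 of 2.94. Against TAC2 8 were higher and 2 lower, beside 13.9% and 14.5% of all genes, with a median of 0.26 (1 lower without library 1), so the share of lower genes was near that of all genes. Gins2, a subunit of GINS, averaged 66.2 ± 3.95 CPM in TAC1, 21.1 ± 4.19 in TAC2 and 11.7 ± 2.92 in basal cells (log2 1.66 ± 0.10 over TAC2, adjusted p = 3.64e-13). Cdc45, the other partner of the ring, was 5.13 ± 0.24 over basal cells (adjusted p = 2.52e-13) and 0.47 ± 0.16 over TAC2 (adjusted p = 0.0289). Tipin and Topbp1, which protect the fork and start it, were 0.69 and 0.53 over TAC2 (adjusted p = 5.02e-06 and 0.00802). Clspn, the adaptor of the replication checkpoint, averaged 25.3 ± 5.48 CPM in TAC1, 35.1 ± 11.7 in TAC2 and 0.534 ± 0.282 in basal cells, and was lower than in TAC2 (-0.46, adjusted p = 0.000203). Cdc7, a kinase that fires origins, was -0.27 ± 0.13 from TAC2 (adjusted p = 0.123) and 3.62 ± 0.18 over basal cells (adjusted p = 6.69e-16).

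All 20 genes of the polymerase, clamp and clamp loader list were higher in TAC1 than in basal cells (13.7% of all genes were, median log2 2.39), and 10 were higher and 0 lower than in TAC2 (13.9% and 14.5% of all genes, median 0.18). Their summed level was 952, 1075 and 919 CPM in TAC1, 878, 936 and 612 CPM in TAC2 and 254, 287 and 220 CPM in basal cells. Within each library TAC1 was above TAC2, but the highest TAC2 value lay above the lowest TAC1 value, and 6 genes rather than 10 were higher without library 3. Pole2, the second subunit of the leading-strand polymerase, averaged 18.4 ± 0.551 CPM in TAC1, 8.23 ± 1.46 in TAC2 and 1.53 ± 0.450 in basal cells (log2 1.15 ± 0.12 over TAC2, adjusted p = 2.02e-08). Its catalytic subunit Pole was 0.12 ± 0.14 from TAC2 (adjusted p = 0.594) and 4.95 ± 0.22 over basal cells (adjusted p = 1.54e-14). Lig1, which seals the fragments of the lagging strand, was 0.56 over TAC2 (adjusted p = 0.0195) and 4.26 over basal cells (adjusted p = 5.75e-10).

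Of 15 enzymes that supply deoxynucleotides, 6 were higher (3 without library 3) and 4 lower than in TAC2, beside 13.9% and 14.5% of all genes. Against basal cells 13 were higher and 0 lower (13.7% and 10.2% of all genes), with a median of 1.19. Dut, which removes dUTP, had 200.3, 220.4 and 246 CPM in TAC1, 189.95, 198 and 154 CPM in TAC2 and 54.1, 62.4 and 53.5 CPM in basal cells. For Dut every TAC1 library lay above every TAC2 library, but the difference of 0.31 ± 0.14 did not pass the test (adjusted p = 0.134). Thymidine kinase Tk1, thymidylate synthase Tyms and the ribonucleotide reductase subunits Rrm1 and Rrm2 were lower than in TAC2, with log2 differences of -0.93, -0.78, -0.64 and -0.70 (adjusted p = 0.000107, 0.0015, 0.000997 and 0.00141). The same 4 genes were 3.89, 2.65, 2.65 and 3.54 over basal cells. Chromatin genes tied to replication were higher than in basal cells in 15 of 15 cases (median 2.00), with 6 higher and 3 lower than in TAC2 (median -0.03), against the same shares of all genes. Nasp, a histone H1 and H3 chaperone, and Uhrf1, which recruits the maintenance DNA methylase, were 0.90 and 0.89 over TAC2 (adjusted p = 1.13e-05 and 0.000129). Asf1b, a histone chaperone, and H2afz, the histone variant H2A.Z, were -1.29 and -1.09 against TAC2 (adjusted p = 4.76e-11 and 7.2e-13). Over the 85 genes of these 5 replication lists together, 80 were higher and 0 lower than in basal cells (median 2.54), 43 higher and 10 lower than in TAC2 (median 0.26), 79 higher and 0 lower than in LSC (21.5% of all genes were higher, median 1.61), and 41 higher than in each of the 6 classes (2.12% of all genes). Of the 43 over TAC2, 36, 39 and 34 were still called without library 1, 2 or 3, and 31 with equal numbers of cells per class.

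**Figure D2:**
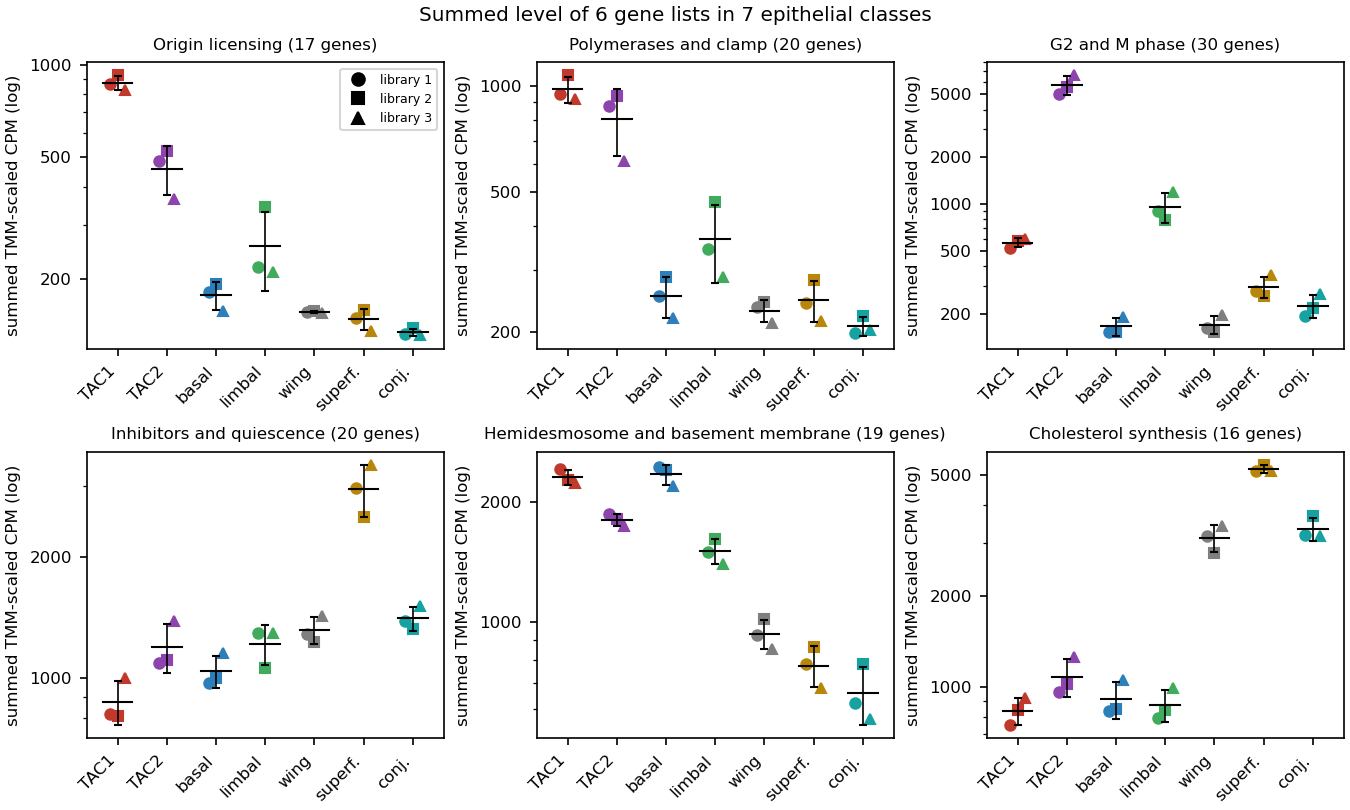
Summed TMM-scaled CPM (log axes) of 6 gene lists in TAC1, TAC2, basal, limbal (LSC), wing, superficial (Squam) and conjunctival (Conj) cells, with 1 point per library, a line at the mean and bars for the SD of 3 libraries. Licensing genes peak in TAC1 at 868, 924 and 830 CPM, while G2 and M phase genes reach 527, 579 and 597 CPM in TAC1 and 5015, 5595 and 6617 CPM in TAC2.

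Among the 159 genes with at least 20 CPM in TAC1 that were higher there than in each of the 6 classes, the one furthest above its nearest class was Ung, the glycosylase that removes uracil from DNA (chr5:114130386-114139323, plus strand). It had 45.7, 43.9 and 42.8 CPM in TAC1 of libraries 1, 2 and 3, 6.55, 7.63 and 2.61 CPM in TAC2 and 1.78, 2.18 and 1.05 CPM in basal cells. The lowest TAC1 library was above every library of the other 6 classes, and the log2 difference was 3.00 ± 0.22 from TAC2 (adjusted p = 9.32e-08), 4.74 ± 0.24 from basal cells (adjusted p = 6.86e-10) and 2.02 from LSC. The 15 genes with the largest such gap also held 6 ring genes, Gins2, Cdt1, Hells, E2f1, Chek1, Zmynd19, Ppat and Msh6. Hells, a chromatin remodeller that acts with DNA methylation, averaged 104 ± 18.1 CPM in TAC1, 34.9 ± 13.4 in TAC2 and 6.21 ± 3.53 in basal cells. Chek1, the kinase that halts the cycle when forks stall, averaged 26.5 ± 1.02 CPM in TAC1, 11.3 ± 1.71 in TAC2 and 0.992 ± 0.455 in basal cells. Msh6, which recognises mismatches, and Ppat, which commits to purine synthesis, were 1.07 and 1.10 over TAC2 and 1.56 and 1.17 over basal cells. These genes were picked by their differences, so their values describe the class.

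Regulators of the step from G1 to S phase were mostly higher than in basal cells, with 20 of 26 higher and 0 lower (13.7% and 10.2% of all genes, median 1.18). Against TAC2 11 were higher and 5 lower (3 without library 1), beside 13.9% and 14.5% of all genes (median 0.24). E2f1, an activating E2F, had 21.4, 27.3 and 20.9 CPM in TAC1 of libraries 1, 2 and 3, 9.28, 11.5 and 4.24 CPM in TAC2 and 0.623, 1.40 and 0.318 CPM in basal cells. Every TAC1 library was above every TAC2 library, by a mean log2 of 1.5 ± 0.23 (adjusted p = 0.000205). E2f8, a repressing E2F that comes later in the cycle, was lower than in TAC2 (log2 -1.26 ± 0.13, adjusted p = 6.73e-09) and higher than in basal cells by 5.03 ± 0.24 (adjusted p = 3.16e-16). The D-type cyclins, which start the inactivation of RB, showed another order of classes. Ccnd1 had 735, 663 and 465 CPM in TAC1, 460.3, 437 and 247 CPM in TAC2 and 715, 644 and 383 CPM in basal cells. Ccnd2 had 304, 279 and 200.1 CPM in TAC1, 139.9, 145 and 73.1 CPM in TAC2 and 297, 281 and 164 CPM in basal cells. Both were higher than in TAC2, by 0.73 ± 0.08 and 1.16 ± 0.15 (adjusted p = 1.35e-07 and 6.06e-05), and 0.12 ± 0.08 and 0.10 ± 0.15 from basal cells (adjusted p = 0.273 and 0.681). Their kinase Cdk4 was higher than in basal cells (0.62 ± 0.08, adjusted p = 3.81e-07) and, by less, than in TAC2 (0.22 ± 0.08, adjusted p = 0.0333).

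DNA damage and recombination genes were higher than in basal cells in 21 of 23 cases, with 1 lower (13.7% and 10.2% of all genes) and a median log2 of 3.47. Against TAC2 8 were higher and 8 lower (4 without library 1), beside 13.9% and 14.5% of all genes. Brca1, a scaffold of homologous recombination, averaged 24.0 ± 2.82 CPM in TAC1, 26.2 ± 3.37 in TAC2 and 0.371 ± 0.196 in basal cells. Its difference from TAC2 was -0.14 ± 0.11 (adjusted p = 0.38). Trp53 was higher than in TAC2 by 0.40 and than in basal cells by 0.60.

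All 30 genes of the G2 and M phase list were lower in TAC1 than in TAC2 (14.5% of all genes were lower), with a median log2 of -4.29, yet 25 were higher and 1 lower than in basal cells (13.7% and 10.2% of all genes), with a median of 2.15. Against LSC 22 were lower and 0 higher (22.6% and 21.5% of all genes), with a median of -1.13, but at 2000 UMIs per cell 5 were lower and 2 higher. The summed level was 527, 579 and 597 CPM in TAC1 of libraries 1, 2 and 3, 5015, 5595 and 6617 CPM in TAC2, 154, 153 and 191 CPM in basal cells and 902, 793 and 1190.3 CPM in LSC. In these sums none of the 3 other classes overlapped with TAC1. At 2000 UMIs per cell, LSC did overlap with TAC1. The mean number of UMIs of the list per cell was then 1.19, 1.34 and 1.84 in LSC and 1.26, 1.35 and 1.42 in TAC1. Mki67, the proliferation antigen, had 13.0, 18.6 and 11.0 CPM in TAC1, 278, 304 and 259.9 CPM in TAC2 and 4.02, 3.65 and 5.21 CPM in basal cells. Top2a, the topoisomerase that untangles sister chromatids, had 29.99, 43.1 and 33.8 CPM in TAC1, 348, 391 and 366 CPM in TAC2 and 1.71, 2.42 and 2.16 CPM in basal cells. Ccnb1, the cyclin of mitotic entry, chosen after its values were seen, had 2.06, 2.17 and 2.95 CPM in TAC1, 88.8, 109.8 and 138 CPM in TAC2 and 0.312, 0.750 and 0.668 CPM in basal cells. For all 3 genes TAC1 lay below TAC2 and above basal cells, with no overlap.

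Members of the list stood at different distances from basal cells. Cdk1, the kinase of mitosis, was lower than in TAC2, with a log2 of -2.59 ± 0.14, and higher than in basal cells, with 4.26 ± 0.20 (adjusted p = 1.62e-09 and 2.04e-10). Ttk and Bub1, kinases of the spindle checkpoint, were 5.71 and 4.72 over basal cells and -2.46 and -3.11 against TAC2. Cenpa, the histone variant of centromeres, averaged 2.69 ± 0.401 CPM in TAC1, 205 ± 48.6 in TAC2 and 2.60 ± 0.845 in basal cells, a log2 of -6.16 ± 0.15 from TAC2 (adjusted p = 1.41e-16) and 0.14 ± 0.22 from basal cells (adjusted p = 0.71). Ube2c, which loads ubiquitin onto mitotic cyclins, was -5.69 ± 0.22 from TAC2 (adjusted p = 1.93e-10) and 0.33 ± 0.24 from basal cells (adjusted p = 0.378). Cenpf, a kinetochore protein, was lower than in both, with a log2 of -6.15 against TAC2 and -1.02 against basal cells (adjusted p = 3.18e-10 and 0.016), but the second call was lost without library 2. Outside the list, Pclaf, a partner of the Pcna clamp, averaged 95.5 ± 19.5 CPM in TAC1, 311 ± 31.9 in TAC2 and 2.23 ± 0.830 in basal cells. The histone genes Hist1h2ap and Hist1h1b, also in no list, were lower than in TAC2, at -4.43 and -4.29 (adjusted p = 7.99e-08 and 7.09e-08), values that are uncertain because near-identical histone genes can share reads.

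Cell by cell, genes of the licensing list were found in most TAC1 cells. The 17 genes counted include Gmnn, whose product blocks licensing, and shares without it were not computed. At 2000 UMIs per cell, 60.4, 61.3 and 54.2% of TAC1 cells of libraries 1, 2 and 3 had at least 2 UMIs from the 17 licensing genes, against 29.0, 32.1 and 19.6% of TAC2 cells and 8.23, 7.98 and 5.34% of basal cells. The mean was 1.39% in Squam, a class of cells past division, and 4.42% in wing cells. At this depth 707 genes were detected in a Squam cell and 877 in a TAC1 cell, so the Squam share is no plain background. In TMM-scaled CPM the licensing sums of Squam, wing and basal cells were closer, averaging 147, 156 and 176 CPM. TAC1 was above TAC2 by 31.7 points and above basal cells by 51.4 points on average, in 3 of 3 libraries (exact sign-flip test, two-sided p = 0.25, the smallest that 3 libraries allow). Cells under 2000 UMIs were left out, 30 in TAC1, 187 in TAC2 and 233 in basal cells. Over all UMIs of each cell, where depth differs, the shares were 98.2, 97.4 and 93.4% in TAC1, 70.7, 73.3 and 54.1% in TAC2 and 64.7, 53.2 and 31.3% in basal cells. At least 2 UMIs from G2 and M phase genes were in 32.5 ± 1.21% of TAC1 cells, 87.8 ± 2.06% of TAC2 cells, 6.70 ± 0.952% of basal cells and 23.6 ± 3.47% of LSC (SD, n = 3). Wing cells were at 4.97%, Squam at 3.74% and Conj at 5.36%, so the share of basal cells was near the shares of wing and Conj. Over all UMIs the shares were 86.8 ± 6.46, 96.8 ± 0.540 and 47.7 ± 10.4% of TAC1, TAC2 and basal cells. On average 35.5% of TAC1 cells passed for licensing genes only, 23.2% for both lists, 9.29% for G2 and M phase genes only and 32.1% for neither. In TAC2 these shares were 0.932%, 26.0%, 61.8% and 11.3%, and in basal cells 6.54%, 0.642%, 6.06% and 86.8%. A cell in neither group had fewer than 2 UMIs of each list at this depth, which does not show that it lacked them.

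**Figure D3:**
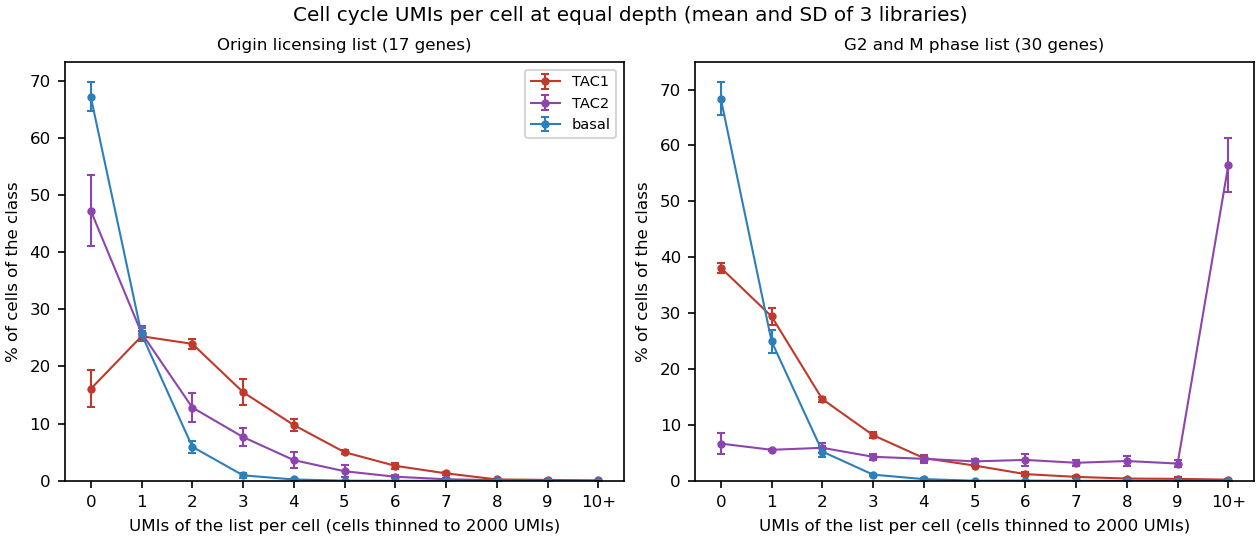
Percent of cells by number of UMIs from licensing genes (Gmnn included) and from G2 and M phase genes after thinning each cell to 2000 UMIs, for TAC1, TAC2 and basal cells (mean and SD of 3 libraries, with 10 and more UMIs pooled). TAC1 cells averaged 2.13 licensing and 1.34 G2 and M phase UMIs, TAC2 cells 1.05 and 13.2, and basal cells 0.415 and 0.403.

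At least 2 UMIs of the 5 replication lists together were in 99.6% of TAC1 cells, 99.4% of TAC2 cells and 93.7% of basal cells, but also in 88.8% of wing and 52.8% of Squam cells. The measure was near its ceiling and could not separate TAC1 from TAC2. At least 5 UMIs were in 95.6% of TAC1, 93.0% of TAC2 and 49.8% of basal cells, and in 36.8% of wing and 7.68% of Squam cells. The mean number was 13.3 UMIs in a TAC1 cell, 14.2 in a TAC2 cell and 4.72 in a basal cell.

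Part of the cell cycle inhibitors were lower in TAC1. Of 20 tested genes 9 were lower and 0 higher than in basal cells (10.2% of all genes were lower), with a median log2 of -0.28 (4 lower without library 2), and 12 were lower and 0 higher than in TAC2 (14.5% of all genes were lower), with a median of -0.62. The summed level was 817, 807 and 1004 CPM in TAC1 of libraries 1, 2 and 3, against 974, 999.6 and 1153 CPM in basal cells, lower in each library but with overlapping ranges. Ccng2, an unusual cyclin that rises in arrested cells, had 2.56, 2.68 and 4.52 CPM in TAC1, 11.2, 10.9 and 16.5 CPM in TAC2 and 5.74, 5.83 and 6.33 CPM in basal cells. It was lower than in basal cells (log2 -0.96 ± 0.18, adjusted p = 0.000364), and the groups did not overlap, but the call was lost with equal cell numbers. Cdkn2b, the p15 inhibitor of Cdk4, averaged 4.35 ± 0.847 CPM in TAC1, 8.50 ± 2.25 in TAC2 and 7.60 ± 1.57 in basal cells (log2 -0.79 ± 0.17, adjusted p = 0.00204 against basal cells), a call also lost with equal cell numbers. Txnip, a brake on glucose uptake, was -0.21 ± 0.17 from basal cells (adjusted p = 0.409), and the calls of Gadd45g, Gas1 and Zfp36l1 against basal cells were lost when single libraries were left out.

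Among the 113 genes lower in TAC1 than in each of the 6 classes that reached 20 CPM in any class, the one furthest below its nearest class was Hist1h2bc, a histone H2B gene whose transcript can be polyadenylated. It had 37.8, 50.3 and 39.6 CPM in TAC1 of libraries 1, 2 and 3, 122, 103 and 208 CPM in TAC2 and 115, 124 and 162 CPM in basal cells, so TAC1 lay below both in every library, with the uncertainty noted for histone genes (log2 -1.61 ± 0.21 against basal cells, adjusted p = 7.13e-05). The nearest class for this gene was LSC, with a gap of 1.45 in log2. H1f0, the linker histone of resting cells, was lower than in basal cells (log2 -0.78 ± 0.10, adjusted p = 9.02e-06) and than in TAC2 (log2 -1.95 ± 0.10, adjusted p = 1.62e-11). Mxd4, which competes with Myc for its partner Max, had 12.6, 12.0 and 14.5 CPM in TAC1 and 34.8, 35.5 and 30.9 CPM in basal cells. It was lower than in basal cells (log2 -1.40 ± 0.09, adjusted p = 3.23e-13) but higher than in TAC2 by 0.50 ± 0.11 (adjusted p = 0.000806). Kdm5b, a histone demethylase, and Pnrc2, a factor of mRNA decay, were -0.80 and -0.73 against basal cells and -0.31 and -1.12 against TAC2.

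Genes for making ribosomes and purines were at their highest in TAC1 for part of each list. In the list of the MYC family and ribosome biogenesis, 10 of 24 were higher and 1 lower than in basal cells (13.7% and 10.2% of all genes, median 0.17). Against TAC2 19 were higher (11 without library 1) and 2 lower (1 without library 1 or 3), beside 13.9% and 14.5% of all genes (median 0.37), and 7 were higher than in each of the 6 classes (2.12% of all genes). Its summed level was 1969 ± 52.7 CPM in TAC1, 1517 ± 136 CPM in TAC2 and 1507 ± 56.0 CPM in basal cells (SD, n = 3). Nop56 and Nop58, core proteins of the box C/D particles that modify ribosomal RNA, were 1.02 and 0.76 over basal cells and 0.69 and 0.43 over TAC2 (adjusted p at most 6.54e-06). Npm1, the main nucleolar chaperone, averaged 599 ± 35.9 CPM in TAC1, 434 ± 64.7 in TAC2 and 386 ± 15.6 in basal cells. Of 15 genes of serine, one-carbon and purine synthesis 12 were higher and 0 lower than in basal cells (median 0.56), and 7 higher and 4 lower than in TAC2, beside the same shares of all genes, with 1 lower without library 1 and 2 without library 3. Paics, an enzyme of purine synthesis, was 0.61 ± 0.06 over basal cells and 0.53 ± 0.06 over TAC2 (adjusted p = 1.27e-09 and 3.38e-08). Mthfd2, the mitochondrial folate enzyme, was 2.33 over basal cells and lower than in TAC2 (-0.95), and Phgdh, which starts serine synthesis, was -0.01 ± 0.08 from basal cells (adjusted p = 0.966) and 0.42 ± 0.08 over TAC2 (adjusted p = 0.000758).

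All 16 genes of nuclear transport and RNA processing were higher than in basal cells (13.7% of all genes were, median 0.49). The count fell to 14 without library 1, 13 at 2000 UMIs per cell and 9 with equal cell numbers. Against TAC2 2 were higher, near the 13.9% of all genes, and 8 lower, where 14.5% of all genes were (0 higher without library 1 or 2 and 1 without library 3). Ran, the GTPase of nuclear transport, and its partner Ranbp1 were 0.79 and 1.00 over basal cells and -0.50 and 0.05 against TAC2 (adjusted p = 8.78e-08 and 0.682). Lmnb1, a lamin of the nuclear envelope, was 0.86 over basal cells and -1.01 against TAC2 (adjusted p = 1.08e-09 and 4.19e-11). Npm1, Ran and H2afz have near-identical pseudogenes that can share reads, so their levels are less certain. Cholesterol synthesis went the other way. All 16 of its genes were lower than in the mean of the other classes (36.5% of all genes were), 10 were lower (4 without library 1) and 0 higher than in TAC2 (14.5% and 13.9% of all genes), and 2 lower (0 without library 1) and 0 higher than in basal cells, where the share lower was near the 10.2% of all genes. Against LSC 4 were lower and 3 higher (median -0.08), near the 22.6% and 21.5% of all genes. Against wing, Squam and Conj all 16 were lower in each case (40.5, 41.7 and 39.6% of all genes). Fdps, which makes farnesyl diphosphate, averaged 168 ± 22.5 CPM in TAC1, 233 ± 22.4 in TAC2, 166 ± 14.3 in basal cells and 907 ± 41.9 in wing cells.

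**Figure D4:**
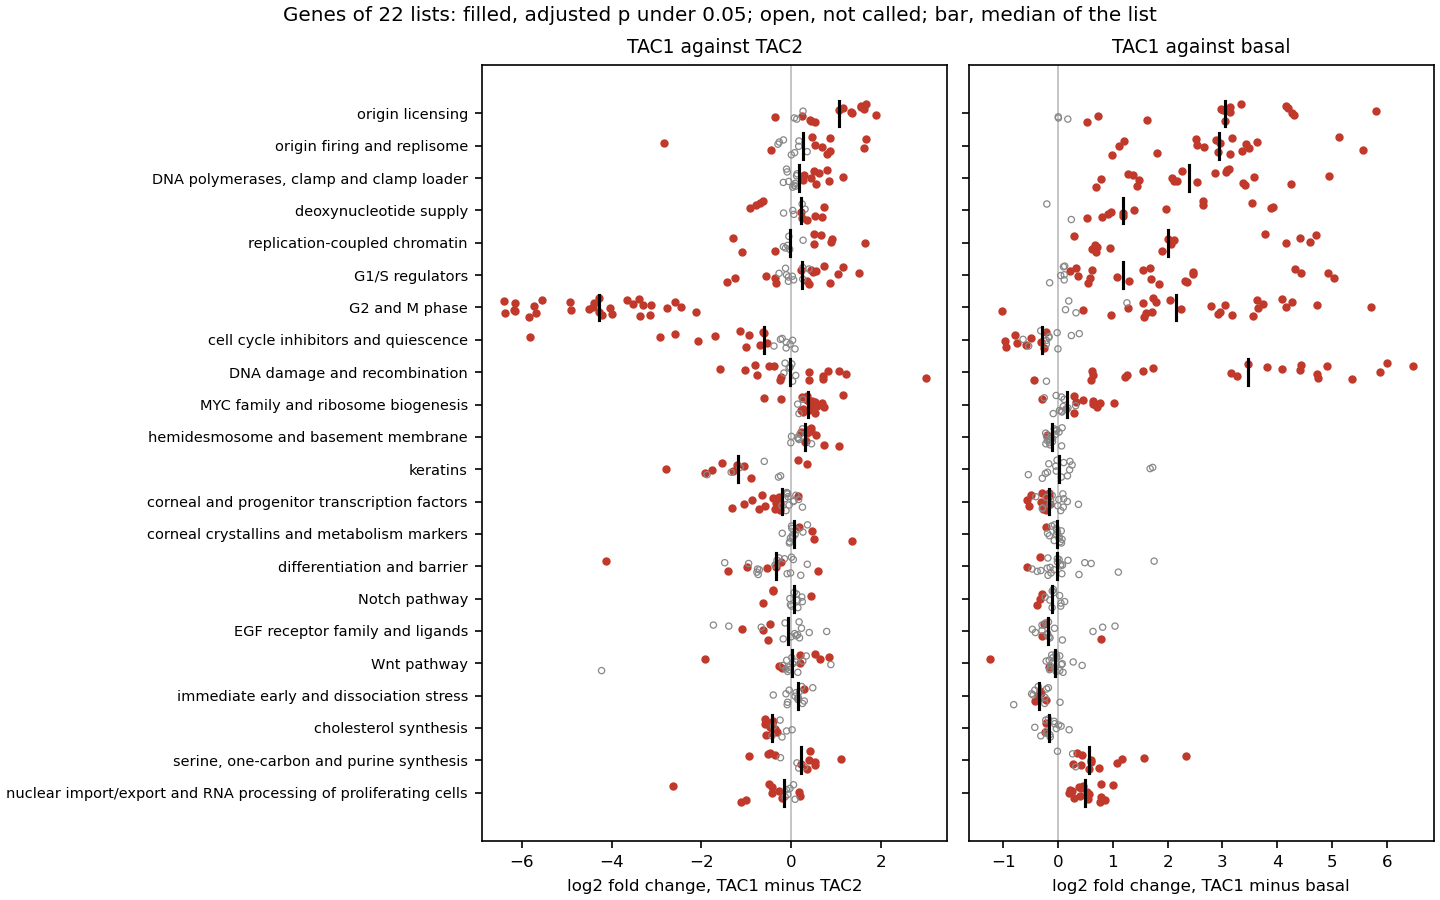
Log2 difference of TAC1 from TAC2 (left) and from basal cells (right) for the tested genes of 22 gene lists, with 1 point per gene, filled where the adjusted p was under 0.05, and a bar at the median of the list. Most licensing genes lie above 0 in both comparisons (medians 1.07 and 3.04), G2 and M phase genes below 0 against TAC2 (median -4.29) and above it against basal cells (median 2.15), and the medians of the keratin, hemidesmosome and Notch lists are near 0 against basal cells (0.02, -0.11 and -0.10).

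In the genes that mark a corneal basal cell, TAC1 and basal cells were close. Of 18 genes of the hemidesmosome and basement membrane, 0 were higher and 1 was lower than in basal cells (13.7% and 10.2% of all genes), while 10 were higher and 0 lower than in TAC2 (median 0.32, 13.9% of all genes were higher). Summed over the 19 genes in the table, the level was 2318 ± 102 CPM in TAC1, 1806 ± 65.0 CPM in TAC2 and 2354 ± 137 CPM in basal cells (SD, n = 3). The integrin Itgb4, which anchors the hemidesmosome to laminin, averaged 146 ± 7.55 CPM in TAC1, 115 ± 8.08 in TAC2 and 148 ± 11.7 in basal cells, a log2 of 0.34 ± 0.08 from TAC2 (adjusted p = 0.00223) and -0.02 ± 0.08 from basal cells (adjusted p = 0.882). Plec and Dst, which tie keratin filaments to it, were 0.31 and 0.32 over TAC2 (adjusted p = 0.000155 and 0.00241). Lama3, a chain of laminin-332, was higher than in TAC2 (0.56 ± 0.07, adjusted p = 9.69e-07) and lower than in basal cells (-0.20 ± 0.07, adjusted p = 0.0283), the second call being lost without library 1 or 2.

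None of 16 keratins passed the edgeR test between TAC1 and basal cells (0 higher, 0 lower, beside 13.7% and 10.2% of all genes), with 1 of them at an unadjusted p under 0.05 and 1 called higher by DESeq2. Against TAC2 2 were higher and 8 lower (13.9% and 14.5% of all genes), but without library 1 the lower ones came to 1 and without library 3 to 2. Krt5, the keratin of basal layers, averaged 4695 ± 356 CPM in TAC1, 4193 ± 279 in TAC2 and 4748 ± 385 in basal cells. Krt15, a keratin of limbal and basal cells, ranged widely, with 131, 391 and 65.4 CPM in TAC1 of libraries 1, 2 and 3, 131, 304 and 89.4 CPM in basal cells and 6643, 6281 and 8104 CPM in LSC. Library 2 was the highest in TAC1 and in basal cells. Krt14 was similarly uneven, with 463, 1129.7 and 384 CPM in TAC1 and 438, 674 and 384 CPM in basal cells. Of 27 transcription factors 0 were higher and 12 lower than in basal cells (10.2% of all genes were lower), with a median of only -0.16, and 3 were lower without library 1 and 5 without library 2. Id4, an inhibitor of bHLH factors, was lower (log2 -0.53 ± 0.11, adjusted p = 0.000517) and held in every fit that left out 1 library. The calls of Klf4, Pax6, Trp63, Grhl3 and Klf6 against basal cells were each lost without at least 1 of libraries 1 and 2. Trp63, the master regulator of stratified epithelia, averaged 149.5 ± 14.3 CPM in TAC1, 135 ± 14.0 in TAC2 and 167 ± 9.67 in basal cells.

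Of 24 differentiation genes 2 were lower (0 without library 1, 1 without library 2) and 0 higher than in basal cells, a share of lower genes near the 10.2% of all genes, and 20 were lower and 3 higher than in the mean of the other classes (36.5% and 37.0% of all genes). Dsp, a desmosome protein, averaged 556 ± 21.8 CPM in TAC1, 537 ± 21.8 in TAC2 and 548 ± 33.3 in basal cells. Of the corneal crystallins and metabolic enzymes 1 of 16 was lower and 0 higher than in basal cells (10.2% and 13.7% of all genes). That gene was Tkt, transketolase, with 6300.5, 6027 and 5401 CPM in TAC1 and 7150.1, 7477 and 6052 CPM in basal cells, a difference of -0.22 ± 0.05 (adjusted p = 0.00316) that was not called without library 1.

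Signalling genes were compared with basal cells, where 10.2% of all genes were lower and 13.7% higher. In the Notch list 3 of 13 genes were lower and 0 higher, in the EGF receptor list 2 of 18 lower and 1 higher and in the Wnt list 2 of 22 lower and 0 higher. The shares lower in the EGF receptor and Wnt lists were near that of all genes. All of these calls for the genes named, Hes1, Jag1, Maml1, Etv4, Spry1, Erbb3, Wnt11 and Tcf7l2, were lost when at least 1 library was left out. Wnt10a, a Wnt ligand, had 88.2, 111 and 67.1 CPM in TAC1, 54.5, 76.1 and 42.4 CPM in TAC2 and 87.9, 114 and 69.9 CPM in basal cells. TAC1 was above TAC2 in each library, with overlapping ranges (log2 0.63 ± 0.08, adjusted p = 1.9e-07), and -0.03 ± 0.07 from basal cells (adjusted p = 0.814). Jag2, a Notch ligand, was 0.43 ± 0.11 over TAC2 (adjusted p = 0.00689) and 0.03 ± 0.11 from basal cells (adjusted p = 0.882). Of 16 immediate early and stress genes, which dissociation can induce, 6 were lower and 0 higher than in basal cells (10.2% and 13.7% of all genes), and Ier2 at -0.37 ± 0.06 (adjusted p = 3.95e-05) held in every fit that left out a library.

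Apart from the replication lists, genes far above TAC2 were of varied function. Aldoa, an aldolase of glycolysis, had 229, 213 and 169.9 CPM in TAC1 of libraries 1, 2 and 3, 87.7, 92.2 and 59.1 CPM in TAC2 and 232, 238 and 173 CPM in basal cells. It was higher than in TAC2 by 1.36 ± 0.07 (adjusted p = 1.47e-15) and -0.07 ± 0.07 from basal cells (adjusted p = 0.497). Igfbp5, a secreted partner of the IGFs, had 98.5, 129 and 81.7 CPM in TAC1, 52.1, 61.8 and 41.9 CPM in TAC2 and 107, 136 and 86.7 CPM in basal cells. Lsamp, a cell adhesion protein best known from neurons, averaged 66.1 ± 17.5 CPM in TAC1, 37.9 ± 10.2 in TAC2 and 73.1 ± 9.20 in basal cells, and 6.52, 17.2, 5.28 and 3.86 CPM in LSC, wing, Squam and Conj. These genes were picked by their differences, so the values describe the class. For Aldoa and Igfbp5 no TAC2 library reached the lowest TAC1 library, and the ranges of TAC1 and basal cells overlapped.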

How the data were processed

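Single cells of separated corneal epithelium were captured with a droplet-based 3′ kit, per the labels' protocols. As deposited by the authors, the matrix gives unnormalised UMI counts for 17931 genes in 38111 cells, and a second table names each cell's library and class. Cell Ranger 5.0.0, Seurat 4 and the build mm10 are named in the submitters' processing notes. Of cell filters, doublet removal and class assignment, nothing is given in the sources used here. The number in their names tied libraries 2 and 3 to the labels, library 1 followed by elimination, and 0 columns of other samples were used.

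Counts were summed over cells for each of 3 libraries and 7 epithelial classes (37997 cells), giving 21 sums. Genes passing filterByExpr (13472) were fitted in 1 model with class and library in edgeR 4.0.16 under R 4.3.3 (quasi-likelihood F test, TMM scaling, robust), with Benjamini-Hochberg adjustment per comparison and a threshold of 0.05. The library was a block because every class was drawn from the same 3 pools of cells. The chi-square between TAC1 sums, divided by its degrees of freedom, was 12.4, 14.6 and 21.4 for the 3 pairs of libraries, and no library was a copy of another. Errors of means are SD over 3 libraries, and errors of log2 differences are SE of the fit. Shares of cells were taken after thinning each cell to 2000 UMIs. The comparison of TAC1 with the mean of the other 6 classes was checked on simulated counts of 13472 genes. There 89.7% of changes of 1 and 67.0% of changes of 0.5 in log2 were recovered, and 8 unchanged genes were called. The simulation held no library effect and no differences among the other classes, unlike the data, and comparisons with single classes were not simulated. Other tools were DESeq2 1.42.0, Python 3.11.15, numpy 2.4.6, scipy 1.17.1, pandas 2.3.3 and scanpy 1.11.5.

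The members and the 22 gene lists (443 genes, 437 in the table) were chosen with earlier results of these data known. Genes named are the largest changes of each comparison, the largest gaps to the nearest class, and from each list the 3 most abundant and the 3 largest calls against basal cells. A few genes that this rule names are not reported here. The doublet caller of scanpy marked 0, 0 and 1.64% of the cells of libraries 1, 2 and 3 and did not work in libraries 1 and 2, so no cell was removed. An alternative left out the 7.59, 9.02 and 13.9% with the highest scores.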

Additional observations from a re-analysis of the deposited data

How the results depend on the processing

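The library block pairs classes by construction. In the fit with no replicate block, the genes called higher and lower than in basal cells numbered 1136 and 256, those against TAC2 713 and 981, and those higher or lower than in each of the 6 classes 118 and 23. Of the 43 replication genes higher than in TAC2, 26 were still called without the block. Scaling by library totals alone gave 3131 genes lower than the mean of the other classes, and 1221 higher and 2947 lower than TAC2. At 2000 UMIs per cell, 3056 genes were lower than the mean of the others, 922 higher and 580 lower than in basal cells, 830 and 739 than in TAC2, and 1123 and 1211 than in LSC, with 110 above and 23 below each class. With equal numbers of cells per class (163), the counts were 3197 and 2836 against the mean of the others, 629 and 168 against basal cells, 562 and 563 against TAC2, and 1523 and 1955 against LSC, with 87 above and 11 below each class. Both settings use fewer UMIs. On 50% of the UMIs, drawn at random (chosen after seeing the data), 58 genes lay below each class, and a fit of TAC1 and basal cells alone gave 2499 lower genes. Leaving out 1 library gave 1335 to 1554 genes higher and 371 to 1257 lower than in basal cells, 1039 to 1422 higher and 1099 to 1432 lower than in TAC2, 2028 to 2974 lower than in LSC, 171 to 206 above each class and 27 to 77 below each class.

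Some single values turned round, and the cause was not tested. Leaving out 1 library moved Cd74 against basal cells between -0.68 (without library 2) and 3.34. With equal cell numbers Cers3 was 0.38, Cox7a1 0.18 and Flacc1 0.89 against basal cells, and Cox7a1 was 0.0708 against TAC2, while Flacc1 was 0.0704 against TAC2 at 2000 UMIs. Reassigning cells to the class of their nearest mean profile kept 84.5% of TAC1 cells in TAC1 and moved 12.5% to basal. It also moved 9.92% of basal cells to TAC1 and 19.7% of wing cells (2654) to basal. Of wing cells, 56.3% stayed in wing. The reassigned sums held fewer UMIs, with 12141378 for 1547 TAC1 cells of library 1, against 21445207 for 1340 cells as deposited. Values against basal cells were then -0.25 for Dsp, -0.44 for Fdps, -1.56 for the wing marker Krt6a, 0.0937 for Lama3, 0.45 for Phgdh and 0.00546 for Trp63. The part of each move in these values was not tested. The share of cells with at least 2 replication UMIs, near its ceiling, differed between TAC1 and TAC2 by 0.00 points at 4000 UMIs and by -0.0433 (without library 2) to 0.309 points without single libraries, and the share with at least 5 G2 and M phase UMIs was -0.897 points from LSC. Depth limits the cell shares, since a cell thinned to 2000 UMIs held 2.13 licensing UMIs on average in TAC1.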
